A study of Mus musculus with 5 samples.

Results

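The interferon regulatory factor genes Irf1, Irf2, Irf3, Irf4, Irf5, Irf7, Irf8 and Irf9, 8 in all, were followed in fibroblasts labelled as lacking SIRT3. They were taken by gene symbol from a table of 23337 genes. Of these 8 genes, 6 (Irf1, Irf2, Irf3, Irf5, Irf7 and Irf9) had at least 10 normalized read counts in 2 or more of the 5 libraries and were among the 13062 genes tested. Irf4 and Irf8 were below that level. The tested libraries were 2 labelled SIRT3 KO (genotype SIRT3 -/-) and 3 labelled SIRT3 WT (wild type), all of mouse embryonic fibroblasts of strain 129Sv, immortalized with the SV40 T antigen and kept under normal conditions, with no interferon or other agent named. SIRT3 removes acetyl groups from proteins inside mitochondria. The SV40 T antigen, which both genotypes carry, is a viral protein that binds p53 and the retinoblastoma protein. The labels do not say whether replicates were grown from separate cultures or embryos. The p-values therefore reflect only how these libraries vary, which may be technical, and a difference between genotypes cannot be told apart from one between lines.

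Interferon regulatory factors share a DNA-binding domain that recognises GAAA repeats. The interferon-stimulated response element (ISRE) is made of such repeats. IRF3 and IRF7 wait in the cytoplasm until the kinases TBK1 and IKKε phosphorylate them downstream of sensors of foreign nucleic acid, and then switch on type I interferon genes. IRF9 joins STAT2 in a complex that carries the signal of the interferon receptor to the ISRE of many genes, Irf7 among them. IRF1 activates and IRF2 mostly represses an overlapping set of genes, IRF5 acts behind Toll-like receptors, and IRF4 and IRF8 are known from lymphoid and myeloid cells. In fibroblasts IRF3 is present at rest, and IRF7 is mostly made in response to interferon.

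The libraries labelled KO held 33473103 and 33579031 reads and those labelled WT held 37396488 to 41758681 reads, of which the lowest, that of WT replicate 2, rests on a size factor too near 1 to be checked. Sirt3, on chromosome 7, had 200.4 and 217 normalized read counts in KO libraries, against 169.7, 149 and 118 in WT libraries. Its log2 fold change was 0.53 (limma, adjusted p = 0.00445). For a null allele without transcript this would contradict the label KO, and values per gene cannot show whether a deleted part is missing. All directions below are between libraries as labelled. Of 10 fibroblast markers, all 10 were tested, 3 were higher and 5 lower in KO (32.6% of all tested genes in each direction), and their summed level was 564748 and 609503 normalized read counts in KO libraries, against 588739.7 to 605313 in WT libraries. Pdgfra was at 1185 and 1324 in KO libraries and at 19752 to 20181 in WT libraries. Fbln2, a matrix protein gene, was at 16666 and 17304 in KO libraries and at 2887 to 2990.1 in WT libraries. The collagen gene Col1a1 was at 99193 and 114212 in KO libraries and at 79728 to 85658 in WT libraries, so single markers moved both ways. Blood cell markers were near 0 or low. Lymphoid markers summed to 5.51 and 11.1 in KO and 6.92 to 18.6 in WT, with 6 of 10 at 0 in all libraries, among them Cd3e and Ms4a1. Myeloid markers summed to 286 and 310.3 in KO and 293 to 316 in WT, with Tyrobp at 0 and only Csf1r called, higher in KO, of 4 tested out of 10. Dendritic markers summed to 137 and 158 in KO and 187 to 222 in WT, with Siglech at 0 and Xcr1 called lower, of 2 tested out of 6. In such bulk RNA, fewer cells that express a gene and less of its RNA per cell cannot be told apart.

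Of the 6 IRF genes tested, 4 were called: Irf7, Irf9 and Irf1 were lower and Irf5 was higher in the libraries labelled KO (limma, Benjamini-Hochberg adjusted p under 0.05). Irf2 and Irf3 did not pass. Calls were common in this comparison, since 65.3% of the 13062 genes tested were called, 32.6% as higher and 32.6% as lower. The share of called members is therefore no result about the family, and the size of each difference says more. Irf7 was among the largest falls of the whole table. Only 0.789% of the genes tested had a log2 fold change as low as that of Irf7, 4.23% as low as that of Irf9, and 24.3% as low as that of Irf1, while 5.67% were as high as Irf5. KO and WT values were fully separate for 5 of the 6 genes, Irf3 being the exception, as they were for 75.4% of all tested genes. Other tools called the same 4 members: edgeR on recovered reads, which called 62.0% of the tested genes (31.7% as higher, 30.3% as lower), DESeq2 on the same reads, which called 46.8% of the 14328 genes it gave an adjusted p (23.6% as higher, 23.2% as lower), and the authors' deposited table, which called 50.5% of 15222 genes (25.7% as higher, 24.8% as lower).

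Levels were compared between the genes on the RPKM scale (reads scaled to transcript length and library depth). In KO libraries the order was Irf3 (14.3 ± 0.764 RPKM), Irf2 (9.25 ± 0.14), Irf1 (6.68 ± 0.429), Irf9 (3.31 ± 0.134), Irf5 (2.49 ± 0.164) and Irf7 (0.257 ± 0.0233), as mean ± SD with n = 2, and no neighbours in that order overlapped. In WT libraries it was Irf3 (14.4 ± 0.347), Irf2 (8.67 ± 0.224), Irf9 (8.31 ± 0.277), Irf1 (8.3 ± 0.574), Irf7 (2.57 ± 0.313) and Irf5 (1.14 ± 0.075), with n = 3. There the values of Irf2, Irf9 and Irf1 ran from 8.41 to 8.81, 8.11 to 8.62 and 7.64 to 8.7 and did not separate. Irf5 and Irf7 thus changed places: the ratio of Irf5 to Irf7 RPKM was 9.55 and 9.9 in KO libraries, against 0.551, 0.399 and 0.394 in WT libraries. Summed RPKM over the 8 genes came to 37.3 and 35.3 in KO libraries, against 43.9, 42 and 44.1 in WT libraries. Irf3 made up 39.8% and 39% of that sum in KO libraries and 33.1% to 33.2% in WT libraries.

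**Figure D1:**
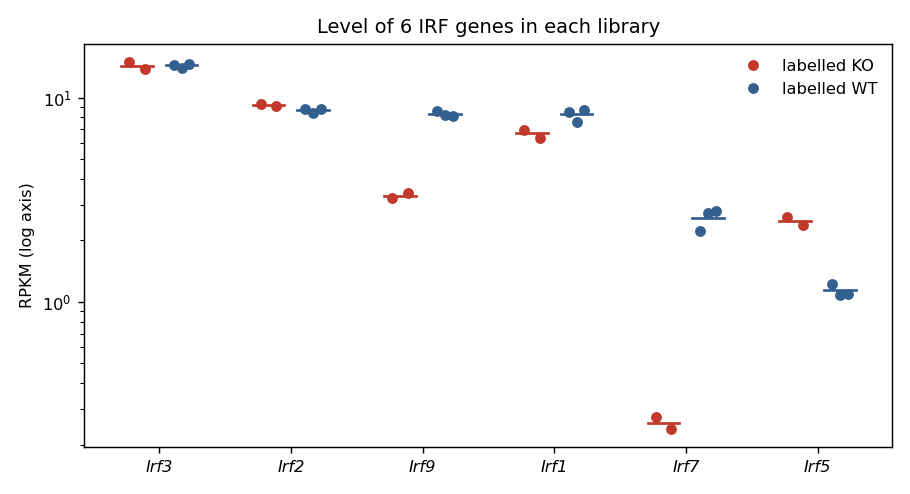
RPKM (log axis) of the 6 tested IRF genes in each library, with KO to the left of WT; points are libraries and lines are group means. Irf7 averaged 0.257 RPKM in KO and 2.57 RPKM in WT, Irf5 2.49 RPKM in KO and 1.14 RPKM in WT, and Irf3 14.3 RPKM in KO and 14.4 RPKM in WT.

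The promoter windows of the 5 genes that follow show the letters around a RefSeq transcript start of each of the 4 called genes and of Irf2, the antagonist of Irf1. For Irf7 and Irf5 that start lies inside the span given below for the gene, not at its outer end. Each window runs from 250 bases before the start to 50 bases after it, read 5′ to 3′ on the gene's strand from RefSeq (GRCm38.p6, the assembly that mm10 names). Both strands were searched for a core of the ISRE, spelled as GAAA, then any 2 bases, then GAAA, and for TTCNNNGAA, the GAS element bound by STAT dimers, and the capitals mark every match. Of the 32851 windows of all genes, 3.44% held the first motif and 8.3% the second. The windows lie at chr7:141266375-141266674 (minus strand) for Irf7, chr14:55603735-55604034 (plus strand) for the first of 2 windows of Irf9, chr6:29526375-29526674 (plus strand) for Irf5, chr11:53769764-53770063 (plus strand) for the first of 2 windows of Irf1, and chr8:46739495-46739794 (plus strand) for Irf2.
Irf7: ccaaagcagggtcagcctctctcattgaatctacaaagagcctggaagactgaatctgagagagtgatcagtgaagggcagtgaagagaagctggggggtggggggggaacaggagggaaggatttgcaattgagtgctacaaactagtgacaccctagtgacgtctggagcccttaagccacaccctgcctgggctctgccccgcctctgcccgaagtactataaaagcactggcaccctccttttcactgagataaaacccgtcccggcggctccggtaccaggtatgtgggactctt
Irf9: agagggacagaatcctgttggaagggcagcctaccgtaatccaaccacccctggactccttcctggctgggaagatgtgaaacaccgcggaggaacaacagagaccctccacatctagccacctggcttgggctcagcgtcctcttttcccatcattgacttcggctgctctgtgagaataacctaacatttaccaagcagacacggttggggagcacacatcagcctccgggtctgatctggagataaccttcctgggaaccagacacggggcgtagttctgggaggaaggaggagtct
Irf5: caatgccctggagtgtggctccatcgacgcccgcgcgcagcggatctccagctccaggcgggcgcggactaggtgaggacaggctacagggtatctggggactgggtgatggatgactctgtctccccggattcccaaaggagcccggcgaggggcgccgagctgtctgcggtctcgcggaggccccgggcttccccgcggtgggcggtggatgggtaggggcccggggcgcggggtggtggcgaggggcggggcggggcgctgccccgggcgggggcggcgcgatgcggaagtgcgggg
Irf1: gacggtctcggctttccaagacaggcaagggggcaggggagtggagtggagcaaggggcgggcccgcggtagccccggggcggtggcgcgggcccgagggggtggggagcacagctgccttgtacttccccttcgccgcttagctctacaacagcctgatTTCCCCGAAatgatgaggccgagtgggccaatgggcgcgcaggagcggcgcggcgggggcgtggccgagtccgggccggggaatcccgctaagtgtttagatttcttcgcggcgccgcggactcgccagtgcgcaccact
Irf2: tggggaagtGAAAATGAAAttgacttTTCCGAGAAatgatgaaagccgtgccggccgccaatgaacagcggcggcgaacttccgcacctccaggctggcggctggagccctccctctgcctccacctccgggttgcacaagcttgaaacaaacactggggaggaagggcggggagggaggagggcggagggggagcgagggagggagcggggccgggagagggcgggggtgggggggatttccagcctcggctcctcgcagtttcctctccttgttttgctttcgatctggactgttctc
The Irf1 window held a GAS match, TTCCCCGAA, at bases 161 to 169 counted from the 5′ end of the window, whose first base lies 90 bases before the start. Irf2 was the one member with a match to the ISRE core (GAAAATGAAA, bases 10 to 19), followed by a GAS match (TTCCGAGAA, bases 27 to 35). No match to these letters was present in the Irf7, Irf9 and Irf5 windows, nor in those of Irf3 and Irf4 or the second windows of Irf1 and Irf9. Irf8, which was below the level tested, had 2 GAS matches in its first window, at bases 80 to 88 and 98 to 106. The Irf5 window had a GC content of 74.7%, above that of 95.8% of all windows, whereas those of Irf7 (55%) and Irf9 (55.3%) lay near the median of 52.7%. The matches are a description of the letters and say nothing of binding in these cells.

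Irf7, the amplifier of type I interferon production, had the largest difference of the family. It had 18.7 and 16.7 normalized read counts in KO libraries, against 152, 187 and 191 in WT libraries. Both KO libraries lay far below the lowest WT library. The means were 17.7 ± 1.44 (SD, n = 2) in KO and 177 ± 21.6 (SD, n = 3) in WT, so the KO mean was 10% of the WT mean, and the log2 fold change was -3.24 (standard error 0.201, 95% interval -3.66 to -2.83; limma, adjusted p = 5.97e-12). The KO values rest on 17 and 15 reads. Irf7 passed the filter in both groups. It stood above 8.39% of the tested genes by mean RPKM in KO and above 27.4% in WT. The gene lies at chr7:141263183-141266499 and overlaps Phrf1, on the other strand, by 45 bases in GENCODE M21. Phrf1 moved the other way, at 5857 ± 403 normalized read counts in KO and 4691 ± 201 in WT (log2 fold change 0.32; limma, adjusted p = 3.63e-06).

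Irf9, which binds the ISRE together with STAT2, was lower as well. Its normalized read counts were 318 and 341 in KO libraries, against 856, 814 and 805 in WT libraries. The groups were far apart beside their spread. The KO mean was 329.8 ± 16.4 (SD, n = 2) and the WT mean 825 ± 27 (SD, n = 3), a 2.5-fold lower level in KO with a log2 fold change of -1.32 (standard error 0.0781, 95% interval -1.48 to -1.16; limma, adjusted p = 2.76e-12). The RPKM ratio of Irf9 to Irf3, the member that differed least, was 0.216 and 0.247 in KO libraries, against 0.594, 0.587 and 0.557 in WT libraries. Irf9 lies at chr14:55603985-55610030 and shares 123 bases with Rnf31 on the same strand. Rnf31, a subunit of the linear ubiquitin ligase, had a smaller difference, at 861 ± 67.7 in KO and 1093 ± 13.8 in WT (log2 fold change -0.35).

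Irf5, a factor of Toll-like receptor signalling, was the one tested member that was higher. It had 230.2 and 212 normalized read counts in KO libraries, against 108, 96 and 97.1 in WT libraries. The lower KO library was still well above the highest WT library. With means of 221 ± 12.6 (SD, n = 2) in KO and 100.3 ± 6.54 (SD, n = 3) in WT, Irf5 was 2.21-fold higher in KO, with a log2 fold change of 1.13 (standard error 0.147, 95% interval 0.83 to 1.44; limma, adjusted p = 6.99e-07). Irf5 lies at chr6:29526130-29541869, and its 3′ end overlaps Tnpo3, a nuclear import receptor gene on the other strand, by 1045 bases. Tnpo3 was also higher, at 10841 ± 197 normalized read counts in KO and 7816 ± 187 in WT (log2 fold change 0.47; limma, adjusted p = 3.93e-10). Whether counting used strand is not given in the sources used here, so reads from the overlap cannot be assigned to either gene, and their part in the Irf5 difference was not tested.

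Irf1, an activator that interferon-gamma induces, was lower by a smaller step. It was at 864 and 799.6 normalized read counts in KO libraries, against 1059.8, 949.7 and 1079.6 in WT libraries. The higher KO library and the lowest WT library were close, but did not overlap. The means were 832 ± 45.9 (SD, n = 2) in KO and 1029.7 ± 70 (SD, n = 3) in WT, and the log2 fold change was -0.31 (standard error 0.0693, 95% interval -0.45 to -0.16; limma, adjusted p = 0.000585). Irf1 lies at chr11:53770014-53778374 and shares 907 bases with Gm17334 on the other strand. Irf2, which binds the same sites and mostly represses, did not pass the test. Its values were 856 and 848 in KO libraries, against 805, 773 and 808 in WT libraries (log2 fold change 0.1, 95% interval -0.04 to 0.24; limma, adjusted p = 0.19). On the RPKM scale the ratio of Irf1 to Irf2 was 0.747 and 0.697 in KO libraries, against 0.973, 0.909 and 0.988 in WT libraries, with no overlap between the groups. The Irf2 value changed sign when set against its surroundings. Its 24 tested neighbours within 5 Mb on chromosome 8 had a median log2 fold change of 0.61. With that local shift removed Irf2 was at -0.51 (limma, adjusted p = 2.29e-06). The new sign follows from the subtraction by construction, and that p-value leaves out the spread among the neighbours.

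Irf3, the factor held ready in resting cells, was the most abundant member and the closest to equal. Its normalized read counts were 1199 and 1126 in KO libraries, against 1174, 1129.7 and 1178 in WT libraries. The KO values enclosed the WT values. The log2 fold change was 0.0026 with a 95% interval of -0.12 to 0.12 (limma, adjusted p = 0.973), and a difference smaller than that interval was not detectable with these libraries. Irf3 (chr7:44997648-45002848) overlaps Bcl2l12 on the other strand by 1065 bases. Bcl2l12, at 182 ± 7.35 in KO and 216 ± 12.6 in WT, did not pass the test (log2 fold change -0.25; limma, adjusted p = 0.0873).

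**Figure D2:**
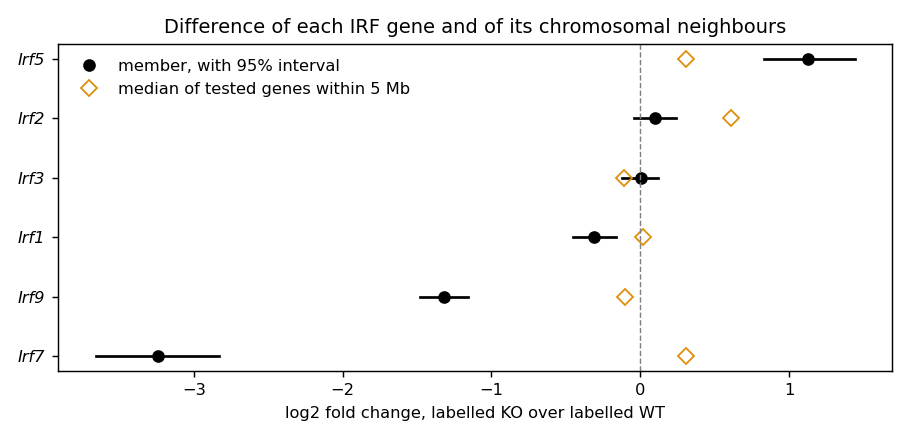
Log2 fold change (KO over WT) of the 6 tested IRF genes with 95% intervals, and as diamonds the median of the tested genes within 5 Mb of each. Irf7 and Irf9 lie at -3.24 and -1.32, with medians of 0.31 and -0.1 around them, while Irf5 lies at 1.13 with a median of 0.31.

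Both members known from blood cells were at a few reads. Irf4 had 0 and 2 reads in KO libraries, against 0, 3 and 1 in WT libraries. Irf8 had 3 and 1 reads in KO libraries and 0 in each WT library, where a count of 0 allows up to 3 reads. Both genes stood near the limit of detection in each group, so no fold is given. Summed over libraries, Irf8 had 4 reads in KO (95% exact Poisson interval 1.09 to 10.2) and 0 in WT (0 to 3.69), intervals that cover counting error only. In annotation Irf8 lies wholly within the readthrough gene Gm20388. With no filter on low values, Irf8 passed (limma, adjusted p = 0.0347) on those 4 reads, and Irf4 did not (0.896).

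The members were set beside the genes around them on the chromosome. Over all tested genes 32.6% were called higher and 32.6% lower. Around Irf7, 57 of 91 tested genes within 5 Mb were higher in KO (62.6%) and 12 lower (13.2%), with a median log2 fold change of 0.31. Irf7 thus went against most of its region, but Ifitm3 and Ifitm1 were lower too, at -1.238 and -1.661. Sirt3 lies in the same region, its start at -0.3995 Mb from that of Irf7. Whether the Sirt3 locus has a part in the Irf7 difference was not tested. The tested genes nearest to Irf7 were Phrf1 on one side and Deaf1, a transcription factor gene, on the other, at 0.071 (limma, adjusted p = 0.301). Around Irf9, 19 of 102 were higher (18.6%) and 39 lower (38.2%), with a median of -0.1. Ipo4, an importin gene on the side away from Rnf31, was at -0.11 (adjusted p = 0.0171 in the same limma fit). Around Irf5, 26 of 42 were higher (61.9%) and 2 lower (4.76%), with a median of 0.31. Irf5 and its region thus moved in one direction, Irf5 by more. Kcp, the nearest tested gene on the side away from Tnpo3, did not pass (log2 fold change 0.18; limma, adjusted p = 0.766). Around Irf1, 26 of 91 were higher (28.6%) and 25 lower (27.5%), near the shares of all tested genes, with a median of 0.02. The genes nearest to Irf1 were Rad50, a DNA repair gene, at 0.12 and Slc22a5, a carnitine transporter gene, at -0.28. With the regional median subtracted from every gene, Irf7, Irf9, Irf5 and Irf1 kept their calls and directions. Of the 8 members, Irf8 had the surroundings with the largest shift: 82 of 95 tested genes were higher in KO (86.3%) and the median was 0.96.

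**Figure D3:**
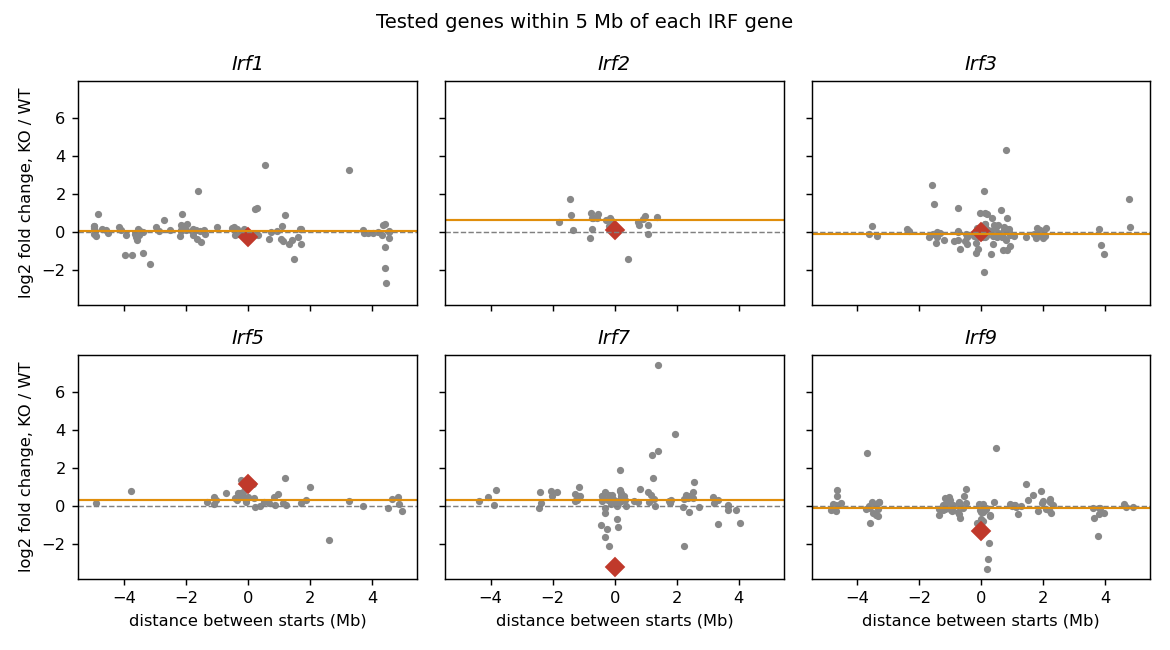
Log2 fold change (KO over WT) of tested genes against the distance of their start from that of each IRF gene (Mb, within 5 Mb on either side); the red diamond is the IRF gene and the orange line the median of its neighbours. Irf7 (-3.24) lies far below its neighbours' median of 0.31, and the genes around Irf2 have a median of 0.61.

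Upstream of the factors, most sensors, adaptors and kinases were lower in KO. Of 30 genes listed, 25 were tested, of which 4 were higher and 15 lower (60%), with a median log2 fold change of -0.45. Over all tested genes, 32.6% were lower and 32.6% higher and the median was -0.0023. Tbk1, a kinase of IRF3 and IRF7, had 2281 and 2134 normalized read counts in KO libraries, against 3277, 3181 and 3320.2 in WT libraries (log2 fold change -0.56). Ikbke, for the related kinase IKKε, had 165 and 133 in KO libraries, against 433, 459 and 480.1 in WT libraries (-1.62). For both kinases every KO library was below every WT library, in a comparison where 75.4% of all tested genes were fully separate. Trim25, a ubiquitin ligase of RIG-I signalling, was at 905 and 1109.8 in KO libraries, against 3474, 3481 and 3643 in WT libraries (-1.82). Ddx58, the gene of the RNA sensor RIG-I, and E330016A19Rik, the older symbol of the DNA sensor cGAS, were at -1.89 and -1.19. The weakest limma evidence among these 5 genes was that of Tbk1 (adjusted p = 5.75e-10). The genes that rose included Tmem173, for the adaptor STING, at 0.57, Traf3, an adaptor that leads to TBK1, at 0.43, and the kinase gene Irak2 at 0.95. Sensors and adaptors thus moved in both directions.

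The interferon genes themselves gave almost no reads in either genotype. Of 11 type I, II and III interferon genes in the table, 0 passed the filter and 6 were at 0 in all 5 libraries. Their summed normalized read counts were 0 and 4.45 in KO libraries, against 2.65, 1.98 and 1.85 in WT libraries. Ifnb1, the interferon-beta gene that IRF3 and IRF7 control, was seen in WT replicate 2 alone, at 0.989.

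Among genes of interferon reception the share called was near that of all tested genes. Of 17 receptors, Janus kinases, STATs and inhibitors, 16 were tested, of which 3 were higher and 7 lower (62.5% called, beside 65.3% of all tested genes), with a median log2 fold change of -0.08. The gene of STAT2, the partner of IRF9, was lower. Stat2 had 429 and 396 normalized read counts in KO libraries, against 751, 675 and 661 in WT libraries (log2 fold change -0.75; limma, adjusted p = 6.96e-08). Irf9 and Stat2 were thus both lower in each KO library than in any WT library, where 75.4% of all tested genes were fully separate. The receptor genes Ifnar1 and Ifnar2 did not pass the test, at 0.059 and -0.09. Of the kinases on the tails of interferon receptors in general, Tyk2 fell, at -0.55, and Jak2 rose, at 0.59. Jak1 did not pass the test, at -0.027 (limma, adjusted p = 0.566). Ifngr2, a receptor chain for interferon-gamma, rose by 0.22, and the phosphatase gene Ptpn6 rose by 0.71, a call that ended without KO replicate 2 (limma, adjusted p = 0.233) and without WT replicate 3 (0.0787).

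Most genes listed as targets of the factors were lower in KO. Of 46 interferon-stimulated genes listed as ISRE-driven, 45 were in the table and 38 were tested. Of these 38, 33 were lower (86.8%) and 2 higher, with a median log2 fold change of -1.65. Over all tested genes 32.6% were lower and 32.6% higher. Lgals3bp, a secreted glycoprotein gene, had 115 and 111 normalized read counts in KO libraries, against 2541, 2222 and 2311 in WT libraries (log2 fold change -4.37; limma, adjusted p = 1.9e-21). Oasl2, of the oligoadenylate synthetase family, was at -5.29. Ifit2, for an antiviral protein that binds RNA, went the other way, with 1674 and 1616 in KO libraries, against 715, 754 and 768 in WT libraries (1.14; limma, adjusted p = 5.78e-13). The other gene that rose was Herc6, a ubiquitin ligase gene, at 0.67, whose call ended without KO replicate 1 (limma, adjusted p = 0.07). Of these listed genes, 25 of the tested ones had a promoter window, 11 windows held the ISRE core, and all 11 of those genes were lower, as were 10 of the others.

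Of 30 genes listed as targets of IRF1, 23 were tested, of which 14 were lower (60.9%) and 2 higher, with a median log2 fold change of -0.66. Calls in either direction made up 69.6% of this list and 65.3% of all tested genes, and calls as lower 32.6% of all. Gbp2, a guanylate-binding protein gene, had 26.4 and 18.9 normalized read counts in KO libraries, against 202, 178 and 231 in WT libraries (log2 fold change -3.12; limma, adjusted p = 8.39e-12). Tapbp, for the peptide-loading protein tapasin, was at -1.48 and Vcam1, an adhesion molecule gene, at -0.75. The class I antigen gene H2-K1 and the receptor gene Il15ra rose, at 0.74 and 1.7. Class I genes did not move together, since H2-D1 and H2-T23 on the same list were lower. They were at -0.52 and -0.66 (limma, adjusted p = 9.04e-10 and 1.9e-05). H2-K1 belongs to a family of near-identical genes, so its value is uncertain where the counting could split reads. The call of Irgm1, an immunity-related GTPase gene, (log2 fold change -0.25) ended without KO replicate 1, KO replicate 2, WT replicate 1 or WT replicate 2, with adjusted p from 0.0519 to 0.21 (limma).

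Of 16 partners and regulators of IRF proteins listed, 12 were tested, with 3 higher, 7 lower and a median log2 fold change of -0.28, where 32.6% of all tested genes were called in each direction. The 3 genes for IRF2-binding proteins differed in direction. Irf2bp2 was at 4523 and 4749 normalized read counts in KO libraries, against 3101, 3009 and 3150 in WT libraries (log2 fold change 0.59; limma, adjusted p = 9.07e-11). Irf2bp1 was at 2641 and 2544 in KO libraries, against 3261, 3016 and 3094 in WT libraries (-0.27), and 6430527G18Rik, the older symbol of Irf2bpl, at 2249 and 2406 in KO libraries, against 3444, 3246 and 3468 in WT libraries (-0.54). The corepressor family of IRF2 was thus unequal between genotypes while Irf2 itself did not pass. Foxo3, a forkhead factor gene, was at -0.59 and Ep300, for the coactivator p300, at -0.33. Slc15a4, a lysosomal transporter gene needed for IRF5 activation, was called at 0.16 (limma, adjusted p = 0.0188) and the kinase gene Lyn, an inhibitor of IRF5, at 1.25 (adjusted p = 0.0423, same limma fit). The Slc15a4 call ended without KO replicate 1, KO replicate 2, WT replicate 1 or WT replicate 2 (limma, adjusted p from 0.0513 to 0.0936). The Lyn call ended without KO replicate 1, KO replicate 2, WT replicate 1 or WT replicate 3 (limma, adjusted p from 0.051 to 0.182).

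**Figure D4:**
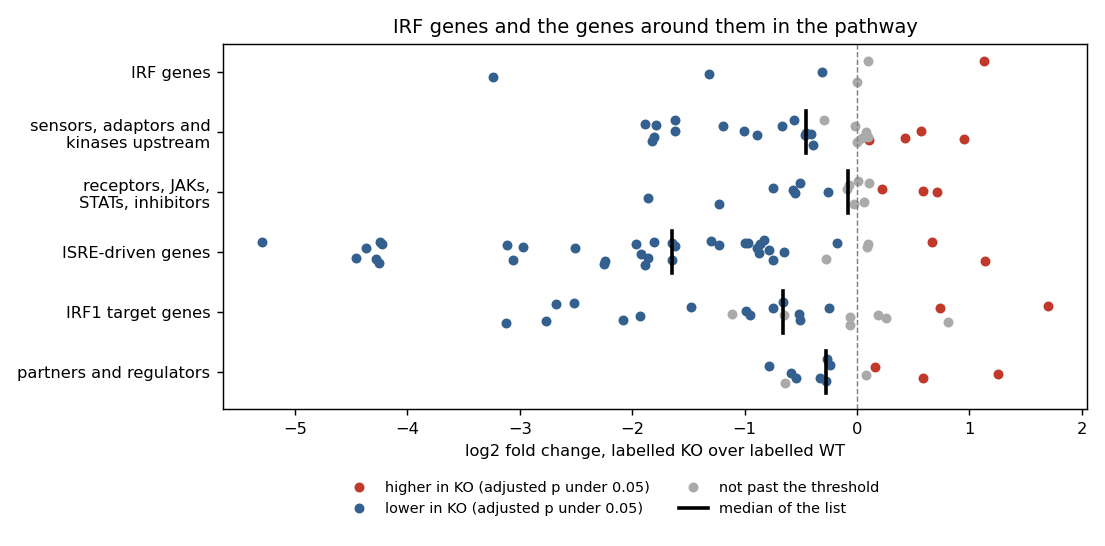
Log2 fold change (KO over WT) of the tested IRF genes and of the tested members of 5 lists around them, one point per gene, coloured by call, with a bar at each list's median. The ISRE-driven genes have the lowest median of the 5 lists, -1.65, and interferon receptors, Janus kinases and STATs one of -0.08.

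The genes whose profiles over the 5 libraries were most like those of Irf7 and Irf5 were sought by the Euclidean distance between gene-centred log2(value + 1) profiles. For Irf7 they were Omd, a bone proteoglycan gene (distance 0.235, log2 fold change -3.28), Pi15, a protease inhibitor gene (0.268, -3.19), and Ripk3, for a kinase of necroptosis (0.298, -3.31). For Irf5 they were Lsm4, an RNA-processing gene (distance 0.0784, log2 fold change 1.1), the zinc finger gene Zfp111 (0.0887, 1.09) and the cGMP-dependent kinase gene Prkg1 (0.105, 1.1).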

How the data were processed

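Per the labels' protocols, poly-T bead selected RNA went into Nextera XT libraries for an Illumina NextSeq. STAR, DESeq2 and mm10 are named, without roles, in the submitters' processing notes. Strand setting, annotation and counting program were not given in the sources used here. Per library, the deposited table gives a signal that the values show to be read counts divided by a size factor by the authors (100% of values are whole multiples of a step within 0.1 reads), and RPKM values, per the file headers. It also holds the authors' log2 fold change, a score (the Wald statistic) and p-values, per the file headers. In the deposited file 25 symbols had become dates and could not be named.

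Libraries were grouped by title. The main test was limma (version 3.58.1, in R 4.3.3; trended prior) on log2(normalized count + 1), with genotype as factor, for the 13062 genes that reached 10 in 2 or more of the 5 libraries. A gene was called where its two-sided p, adjusted by Benjamini-Hochberg over all tested genes, was under 0.05. Fold changes on this scale understate those of low genes. Means, SDs and folds of means are of normalized read counts, and errors beside RPKM are SDs. No set test was run. The planned edgeR test for raw counts gave way to limma, since the values are normalized. edgeR 4.0.16 on the recovered reads of 4 libraries called 4147 genes higher and 3956 lower. Reads of WT replicate 2 did not enter the count tests, as a step so near 1 cannot be checked. The fit was also run on simulated data with known changes, in far fewer genes than were called here. That simulation therefore cannot show how well the calls hold in these data.

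The members and lists were chosen with earlier results of these data known. Some items are not reported here. Named were the 8 IRF genes, Sirt3, partners fixed by name, up to 3 called genes per list and direction with the smallest adjusted p, nearest tested neighbours and the 3 genes most like the largest rise and fall. Ifnar1, Ifnar2, Ifnb1, Jak1, Irgm1, H2-D1, H2-T23, Ifitm1 and Ifitm3 were named after their values were seen. Of the ISRE-driven genes, 8 stand on another list too, and 7 listed genes were matched by an older symbol. Positions and promoter windows are from RefSeq (GRCm38.p6) and overlaps from GENCODE M21.

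Tried as alternatives were rescaling by TMM or median ratio, dropping the filter, a mean of at least 50, a pseudocount of 0.5 or 5, each library left out, the replicate number as a block, edgeR, DESeq2 1.42.0, the authors' comparison, RPKM values, an adjusted p under 0.01 and the regional median within 5 Mb removed.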

Additional observations from a re-analysis of the deposited data

How the results depend on the processing

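Over 18 alternatives, 349 of the 360 values for 20 results were taken as unchanged. Most of these results are counts of called genes, for which some shift still passed as unchanged. The ISRE-driven genes called lower, 33 in the main fit, ran from 24 with a mean of 50 or more to 36 with no filter. All tested genes called lower went from 4264 in the main fit to 3328 under DESeq2. Irf7 ranged from -3.55 to -2.78, Irf9 from -1.37 to -1.22, Irf5 from 0.82 to 1.19 and Irf1 from -0.37 to -0.25 on the log2 scale, and these 4 genes were called under all 18. Irf3 was called under none, and its value changed sign, from -0.042 to 0.11. Irf2 was called under 1: with the regional median removed it turned to -0.51 (limma, adjusted p = 2.29e-06), by construction, since its neighbours were higher. With no filter 2 IRF genes were called higher, Irf5 and Irf8. The count of partners and regulators called higher was 1 under DESeq2, in the authors' deposited table, at an adjusted p under 0.01 and with the regional median removed, and 1 to 2 with single libraries left out. The ISRE-driven genes called higher were 1 to 2 with single libraries left out, the IRF1 targets called higher 1 with a mean of 50 or more, and the receptors, kinases and STATs called higher 1 with the regional median removed. The cause of these changes of 1 or 2 genes was not tested. Leaving out single libraries gave 3770 to 4024 genes called higher and 3829 to 3970 called lower over all tested genes. Without a KO replicate, the lone KO library is assumed to vary like the other libraries.

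Same-numbered KO and WT libraries had correlations of -0.00975 and -0.005 between their deviations from the group means. With 2 KO libraries these deviations mirror each other, so the values are not independent. They cannot settle whether replicate numbers pair the libraries. With the replicate number as a block, 3958 genes were called higher and 3947 lower, Irf7 was at -3.18, Irf9 at -1.34, Irf5 at 1.11 and Irf1 at -0.27, and no IRF gene gained or lost a call.

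At 17 and 15 reads, the Irf7 level in KO libraries carries much counting error, and at 0 to 3 reads per library Irf4 and Irf8 allow no comparison.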

Other observations

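Among all 9260 tested genes with a RefSeq promoter window, 321 held the ISRE core (GAAA, any 2 bases, GAAA). Of those 321, 43.6% were lower and 26.8% higher in KO libraries, while of the 8939 genes without it 33.2% were lower and 32.6% higher. For the GAS element (TTCNNNGAA), held by 773 of these genes, 32.5% were lower and 32.1% higher, against 33.7% and 32.4% of the genes without it. Of the genes with the ISRE core in their window, 298 were on none of the lists, and 39.6% of these were lower and 28.9% higher. No test was made of these shares, and windows of neighbouring or related genes are not independent.

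Nfatc4 and Ripk3, near Irf9, fell by more than Irf9 did. Nfatc4, a calcium-responsive transcription factor gene whose start lies 0.2208 Mb away, was at 648 ± 6.81 normalized read counts (SD, n = 2) in KO libraries and 4573 ± 229 (SD, n = 3) in WT libraries (log2 fold change -2.82). Ripk3, also among the genes most like Irf7, lies 0.181 Mb away, with 121 ± 17.9 in KO libraries and 1199 ± 8.04 in WT libraries (-3.31). Near Irf1, the interferon-induced GTPase gene Irgm2 had 4.41 and 11.1 normalized read counts in KO libraries, against 54.8, 54.4 and 44.4 in WT libraries (-2.68). These 3 genes were chosen after their values were seen.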
